A study of Mus musculus with 9 samples.

Results

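The genes described here are 10 transcription factors of the dorsal and intermediate neural tube: Pax3, Pax7, Pax6, Irx3, Irx5, Dbx1, Dbx2, Prdm12, Gsx1 and Gsx2. They were taken as the rows of the deposited gene table whose Ensembl identifiers carry these symbols in the GENCODE annotation of the mouse build GRCm38. All 10 were found among the 54532 genes of the table.

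During development the ventral neural tube is patterned by Sonic hedgehog, which the floor plate secretes. In the textbook scheme, homeodomain and paired-box factors that hedgehog signalling represses hold the dorsal and intermediate progenitor domains, and factors that it induces hold the ventral ones. Neighbouring domains are kept apart by cross-repression, as between Pax6 and Nkx2-2, Irx3 and Olig2, Dbx1 and Nkx6-2, and Dbx2 and Nkx6-1. Pax3 and Pax7 mark alar progenitors and neural crest precursors, Gsx1 and Gsx2 mark a band of dorsal progenitors, Dbx1, Dbx2 and Prdm12 mark the domains next to the alar-basal boundary, and Pax6, Irx3 and Irx5 span broader territories.

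Cells of mouse neural tube organoids were sorted by a fluorescent reporter, and their RNA was counted in 3 groups of 3 libraries each, called biological replicates in the labels. All cells came from R1 embryonic stem cells carrying FoxA2-Venus, a fluorescent reporter of the floor plate factor Foxa2, grown clonally in Matrigel and N2B27 medium and collected 66 h after Day 2, when treatment began. SAG GFP+ are cells of high reporter signal from organoids labelled SAG, the name of a small-molecule agonist of the hedgehog transducer Smoothened. RA GFP+ and RA GFP- are the cells of high and of low reporter signal from organoids given all-trans retinoic acid. The labels name SAG in the titles and state no dose, and SAG medium is taken to lack retinoic acid. The retinoic acid dose carries the same figure in nM in one source and in µM in another, which was not settled. No SAG GFP- libraries were analysed here, so the gate was compared within RA and the medium within GFP+ cells. A gate on a reporter collects every cell type that expresses it, and the line is 1 embryonic stem cell line.

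Total counts were 25281871 to 29763765 per library. Levels are given in CPM, read counts scaled to library size with TMM factors, and as mean ± SD with n = 3 libraries per group. Levels of different genes are compared in RPKM, CPM per 1000 bases of exon. Log2 fold changes are given as the first-named group minus the second, with their standard error (SE), and a call of higher or lower needs an adjusted p under 0.05 over all 16772 tested genes in edgeR's quasi-likelihood test. All 10 factors were among the tested genes. Pax3, Dbx1, Prdm12, Gsx1 and Gsx2 reached the filter's cutoff of 0.384 CPM in 0 of 3 SAG GFP+ libraries. Gsx2 passed through the RA GFP- libraries alone, and Gsx1 through these and 1 RA GFP+ library. In sorted bulk samples, fewer cells of a type and less RNA per cell cannot be told apart.

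In RA organoids, 8 of the 10 factors were lower in GFP+ cells than in GFP- cells and 0 were higher, where 8.43% of all tested genes were called lower and 8.49% higher. The 2 that did not pass were Irx3 and Dbx2. This fit has no block for the replicate number, although the numbers pair the RA libraries. With that block Dbx2 was also called (adjusted p = 0.0165 in the 6 RA libraries and 0.0301 in all 9). Irx3 was called in the 6 RA libraries with or without the block, and in all 9 in neither case. Calls over all genes rose with the block too. Gsx1 and Gsx2 are among the 8 and in the counts and median below. Gsx2 was tested through its RA GFP- libraries alone, and Gsx1 through these and 1 RA GFP+ library. A higher call was therefore hardly open to Gsx1 and Gsx2. The RA GFP+ and RA GFP- libraries did not overlap for 9 of the 10, each lower in RA GFP+ cells, a pattern that 18.1% of tested genes showed. Between media, 5 of the 10 (Pax3, Pax7, Pax6, Dbx1 and Prdm12) were lower in SAG GFP+ cells than in RA GFP+ cells and 0 were higher. That call was made for 14.8% of tested genes in the lower direction and 9.78% in the higher. Of the 5, Pax3, Dbx1 and Prdm12 passed the filter through RA libraries alone, as did Gsx1 and Gsx2. Pax7 reached its cutoff in 1 SAG GFP+ library. A higher call in SAG GFP+ cells was therefore hardly open to these factors, and the 0 higher says little of them. The SAG GFP+ and RA GFP+ libraries did not overlap for Pax3, Pax7, Dbx1 and Prdm12, all lower in SAG GFP+ cells, as seen for 23.1% of tested genes. They also did not overlap for Dbx2, which was the only one of the 10 with every SAG GFP+ library above every RA GFP+ library, as seen for 19.8% of tested genes. The median log2 fold change of the 10 was -2.38 for RA GFP+ against RA GFP- cells, beside -0.02 for all tested genes. For SAG GFP+ against RA GFP+ cells it was -2.77, or -1.17 with Gsx2 held at its bound, beside -0.02 for all tested genes.

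**Figure D1:**
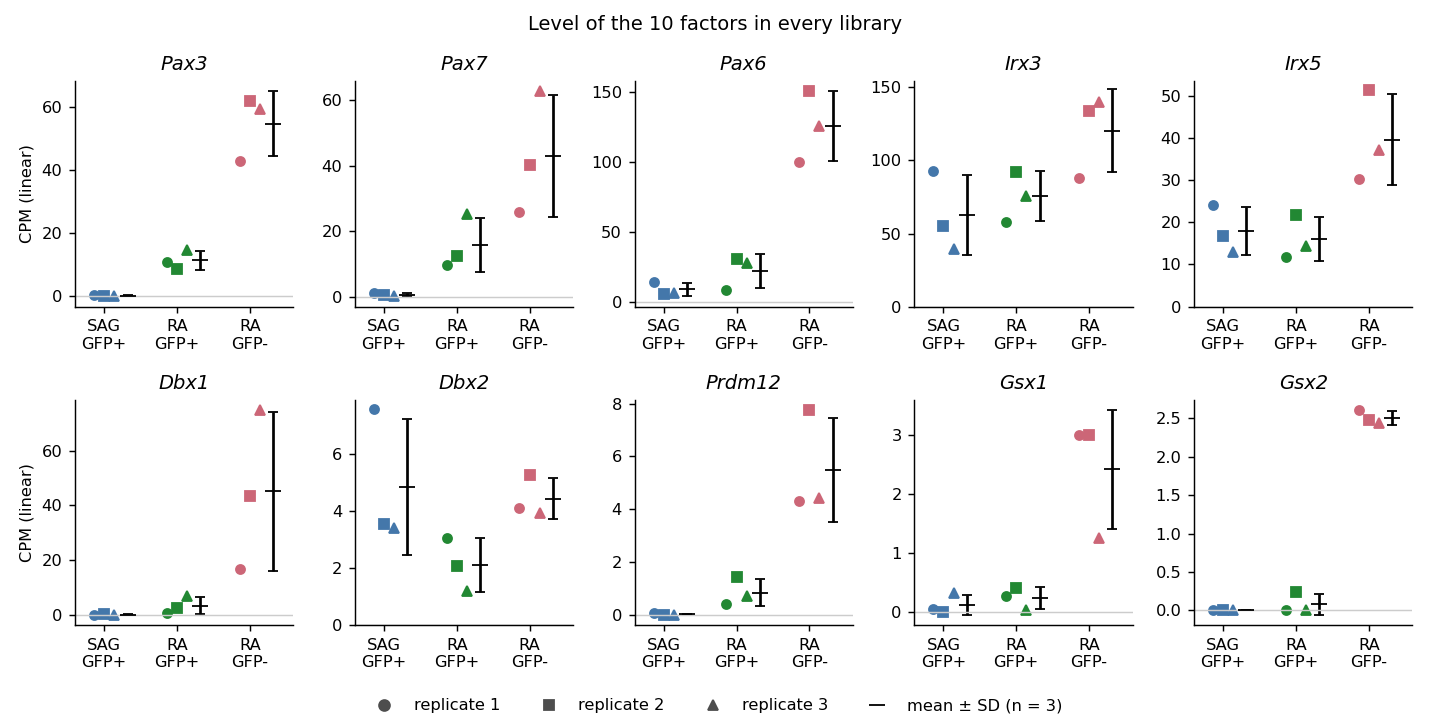
Level of each of the 10 factors in CPM (linear axis, one panel per gene) in SAG GFP+, RA GFP+ and RA GFP- cells. Each point is 1 library, marked by replicate number, and the bar is the mean ± SD of 3 libraries. RA GFP- is the highest group for 9 genes, and for Dbx2 the highest library is SAG GFP+ replicate 1 at 7.58 CPM.

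Per unit of length, Irx3 was the most abundant of the 10 in every group, at 22.7 ± 9.93 RPKM in SAG GFP+, 27.3 ± 6.20 RPKM in RA GFP+ and 43.6 ± 10.2 RPKM in RA GFP- cells. In RA GFP- cells the order after Irx3 was Dbx1 (21.6 RPKM), Irx5 (12.7), Pax6 (10.7), Pax3 (8.86), Pax7 (7.31), Prdm12 (2.23), Gsx2 (1.51), Gsx1 (1.37) and Dbx2 (1.28). Neighbours in that order overlapped between libraries, except that Pax7 stood clear of Prdm12 and Prdm12 clear of Gsx2. In RA GFP+ cells the order after Irx3 was Irx5 (5.13 RPKM), Pax7 (2.69), Pax6 (1.91), Pax3 (1.83), Dbx1 (1.60), Dbx2 (0.608), Prdm12 (0.337), Gsx1 (0.134) and Gsx2 (0.0471). Only the step between Irx3 and Irx5 was free of overlap there. In SAG GFP+ cells the order was Irx3, Irx5 (5.76 RPKM), Dbx2 (1.39), Pax6 (0.764), Pax7 (0.0858), Gsx1 (0.0662), Dbx1 (0.0303), Pax3 (0.0154), Prdm12 (0.00549) and Gsx2 (0). The steps below Irx3, below Irx5 and below Pax6 were free of overlap. Dbx2 thus held the tenth place in RA GFP- cells, the seventh in RA GFP+ cells and the third in SAG GFP+ cells.

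Pax3 and Pax7 are paired-box factors of alar progenitors and of cells that become neural crest. Pax3 (ENSMUSG00000004872, chromosome 1, 78101267 to 78197134, minus strand) stood at 0.285, 0 and 0 CPM in SAG GFP+ replicates 1 to 3, at 10.8, 8.54 and 14.7 CPM in RA GFP+ libraries, and at 43.1, 61.9 and 59.5 CPM in RA GFP- libraries. The 3 groups did not overlap, and all 7 Pax3 counts of the SAG GFP+ group lay in replicate 1. Pax3 fell in RA GFP+ cells relative to RA GFP- cells (log2 fold change -2.27, SE 0.36, adjusted p = 0.00131), and it was lower again in SAG GFP+ than in RA GFP+ cells (-6.89, SE 0.58, adjusted p = 1.52e-05). Without SAG GFP+ replicate 1 the SAG group held 0 counts of Pax3, and the gene was then at least 198-fold lower than in RA GFP+ cells. Without SAG GFP+ replicate 2 the fitted log2 fold change was -6.28.

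Pax7 (ENSMUSG00000028736, chromosome 4, 139737062 to 139833528, minus strand) stood at 0.978, 0.375 and 0.156 CPM in SAG GFP+ libraries, at 9.72, 12.4 and 25.1 CPM in RA GFP+ libraries, and at 25.8, 40.1 and 62.7 CPM in RA GFP- libraries. The SAG GFP+ libraries lay far below the rest, while the highest RA GFP+ library came close to the lowest RA GFP- library. Pax7 was lower in SAG GFP+ than in RA GFP+ cells (log2 fold change -4.97, SE 0.58, adjusted p = 0.000115; -5.84 without SAG GFP+ replicate 1). Its fall in RA GFP+ against RA GFP- cells was near the threshold (-1.44, SE 0.44, adjusted p = 0.0439). That call was lost with DESeq2 (adjusted p = 0.129), without RA GFP+ replicate 1 (0.145) or 2 (0.161), without RA GFP- replicate 2 (0.0868) or 3 (0.161), and without SAG GFP+ replicate 2 (0.0561). Over 17 settings, the reported one included, its adjusted p ranged between 5.12e-06 and 0.161, always with Pax7 below in RA GFP+ cells.

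Pax6, a paired-box factor of intermediate progenitors that is also used in eye and pancreas, was far more abundant in RA GFP- cells than in either GFP+ group. Pax6 (ENSMUSG00000027168, chromosome 2, 105668900 to 105697364, plus strand) stood at 14.5, 5.58 and 6.73 CPM in SAG GFP+ libraries, at 8.47, 30.6 and 27.9 CPM in RA GFP+ libraries, and at 100.3, 150.4 and 125.8 CPM in RA GFP- libraries. Every RA GFP- library lay above every GFP+ library, while the GFP+ groups overlapped through RA GFP+ replicate 1 and SAG GFP+ replicate 1. Pax6 was lower in RA GFP+ than in RA GFP- cells (log2 fold change -2.49, SE 0.44, adjusted p = 0.00281). It was called lower in SAG GFP+ than in RA GFP+ cells only just (-1.33, SE 0.44, adjusted p = 0.0481). Over 17 settings the adjusted p ranged between 7.85e-07 (no filter) and 0.176, and the call was absent in 12. Among these were DESeq2 (0.0779), a minimum count of 50 (0.0520), the 6 GFP+ libraries alone (0.0857), and the fits without RA GFP+ replicate 2 (0.176) or 3 (0.120), SAG GFP+ replicate 2 (0.165) or 3 (0.158), or any RA GFP- library (0.0590 to 0.0641). The Rax gene of the eye field and the Pdx1 gene of the pancreas, where Pax6 is also active, were under 1 CPM in every library.

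Irx3 and Irx5 are homeodomain factors of the Iroquois family that lie on the same chromosome, and Irx3 is known to oppose Olig2 at the motor neuron progenitor boundary. They were the 2 factors that differed least between SAG GFP+ and RA GFP+ cells. Irx3 (ENSMUSG00000031734, chromosome 8, 91798525 to 91802067, minus strand) stood at 92.9, 55.4 and 39.5 CPM in SAG GFP+ libraries, at 58.0, 92.3 and 76.0 CPM in RA GFP+ libraries, and at 88.0, 133.7 and 139.7 CPM in RA GFP- libraries. All 3 groups overlapped. Irx3 averaged 75.4 ± 17.1 CPM in RA GFP+ and 120.5 ± 28.3 CPM in RA GFP- cells, and the difference was not called (log2 fold change -0.67, SE 0.29, adjusted p = 0.141). With the replicate number as a block in the 6 RA libraries, the same log2 fold change of -0.67 had an adjusted p of 0.000487, and with the block in all 9 libraries it had 0.126. The difference was also called with no filter (0.00379), in the 6 RA libraries without a block (0.0496) and without SAG GFP+ replicate 1 (0.0460), and the adjusted p over 17 settings ranged between 0.000487 and 0.358. SAG GFP+ cells did not differ from RA GFP+ cells by the test (-0.27, SE 0.29, adjusted p = 0.534). The antisense gene Irx3os shares 4.5% of the exon bases of Irx3 and had 563 counts over the 9 libraries against 20854 for Irx3.

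Irx5 (ENSMUSG00000031737, chromosome 8, 92357625 to 92376286, plus strand) stood at 24.2, 16.9 and 13.0 CPM in SAG GFP+ libraries, at 11.9, 21.8 and 14.4 CPM in RA GFP+ libraries, and at 30.2, 51.6 and 37.2 CPM in RA GFP- libraries. Both GFP+ groups lay below every RA GFP- library and overlapped each other. Irx5 was lower in RA GFP+ than in RA GFP- cells (log2 fold change -1.31, SE 0.29, adjusted p = 0.00905). Between SAG GFP+ and RA GFP+ cells the log2 difference was 0.17 (SE 0.29, adjusted p = 0.711), and its sign turned without RA GFP+ replicate 1 or SAG GFP+ replicate 1.

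Dbx1 and Dbx2 are homeodomain paralogues of the progenitors on either side of the alar-basal boundary. Dbx1 marks the domain that forms V0 interneurons, and Dbx2 covers that domain and its neighbours. They showed the widest contrast within any pair of related factors here. Their promoter windows, 250 bases before to 50 bases after the RefSeq start site on GRCm38.p6, are shown because Dbx1 was lower in SAG GFP+ than in RA GFP+ cells while every SAG GFP+ library was higher for Dbx2. Capitals mark matches to the CCAAT box, to the TATA box (TATAAA) and to a SOX motif (ACAAAG, on either strand).
Dbx1 promoter, chr7:49636786-49637085, minus strand: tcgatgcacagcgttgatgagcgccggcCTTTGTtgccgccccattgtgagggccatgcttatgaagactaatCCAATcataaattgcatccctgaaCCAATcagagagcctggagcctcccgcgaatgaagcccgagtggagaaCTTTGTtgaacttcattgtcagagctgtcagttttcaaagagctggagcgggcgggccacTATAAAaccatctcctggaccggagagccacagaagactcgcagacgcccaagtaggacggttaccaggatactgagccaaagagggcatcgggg
Dbx2 promoter, chr15:95654722-95655021, minus strand: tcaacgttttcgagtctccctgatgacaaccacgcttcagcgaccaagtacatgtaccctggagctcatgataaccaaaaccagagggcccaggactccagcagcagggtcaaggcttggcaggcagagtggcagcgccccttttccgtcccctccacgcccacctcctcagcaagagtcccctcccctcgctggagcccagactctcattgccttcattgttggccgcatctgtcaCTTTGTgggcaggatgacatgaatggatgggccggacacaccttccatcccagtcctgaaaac

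Dbx1 (ENSMUSG00000030507, chromosome 7, 49631499 to 49636849, minus strand) stood at 0, 0.112 and 0.0779 CPM in SAG GFP+ libraries, at 0.666, 2.49 and 6.91 CPM in RA GFP+ libraries, and at 16.9, 43.6 and 75.0 CPM in RA GFP- libraries. The 3 groups did not overlap, although the RA GFP+ libraries spread widely among themselves. Dbx1 was lower in RA GFP+ than in RA GFP- cells (log2 fold change -3.74, SE 0.70, adjusted p = 0.00377; -4.81 without RA GFP+ replicate 3). It was also lower in SAG GFP+ than in RA GFP+ cells (-5.60, SE 1.14, adjusted p = 0.00406), on 5 counts over the SAG GFP+ group against 289 over the RA GFP+ group. Without RA GFP+ replicate 3 that log2 fold change was -4.53. Without SAG GFP+ replicate 2 the 2 remaining SAG GFP+ counts gave a ratio of 86.5 (95% counting interval 23.7 to 717).

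Dbx2 (ENSMUSG00000045608, chromosome 15, 95623563 to 95655960, minus strand) stood at 7.58, 3.52 and 3.39 CPM in SAG GFP+ libraries, at 3.06, 2.08 and 1.19 CPM in RA GFP+ libraries, and at 4.10, 5.26 and 3.92 CPM in RA GFP- libraries. The RA GFP+ libraries were the lowest 3 of the 9, and the SAG GFP+ libraries lay on both sides of the RA GFP- libraries. Neither difference was called. For SAG GFP+ against RA GFP+ cells the log2 fold change was 1.20 (SE 0.41, adjusted p = 0.0543), and it was called with no filter (0.0149), with DESeq2 (0.0157), without SAG GFP+ replicate 3 (0.0490) and without RA GFP+ replicate 1 (1.56, adjusted p = 0.0387). Over 17 settings that adjusted p ranged between 0.0149 and 0.167. For RA GFP+ against RA GFP- cells the log2 fold change was -1.07 (SE 0.41, adjusted p = 0.103). With the replicate number as a block it was called, at -1.14 (adjusted p = 0.0165) in the 6 RA libraries and at -1.18 (0.0301) in all 9. It was also called with no filter (0.0479), with DESeq2 (0.0452) and without SAG GFP+ replicate 1 (0.0499), with a range of 0.0165 to 0.267 over 17 settings.

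**Figure D2:**
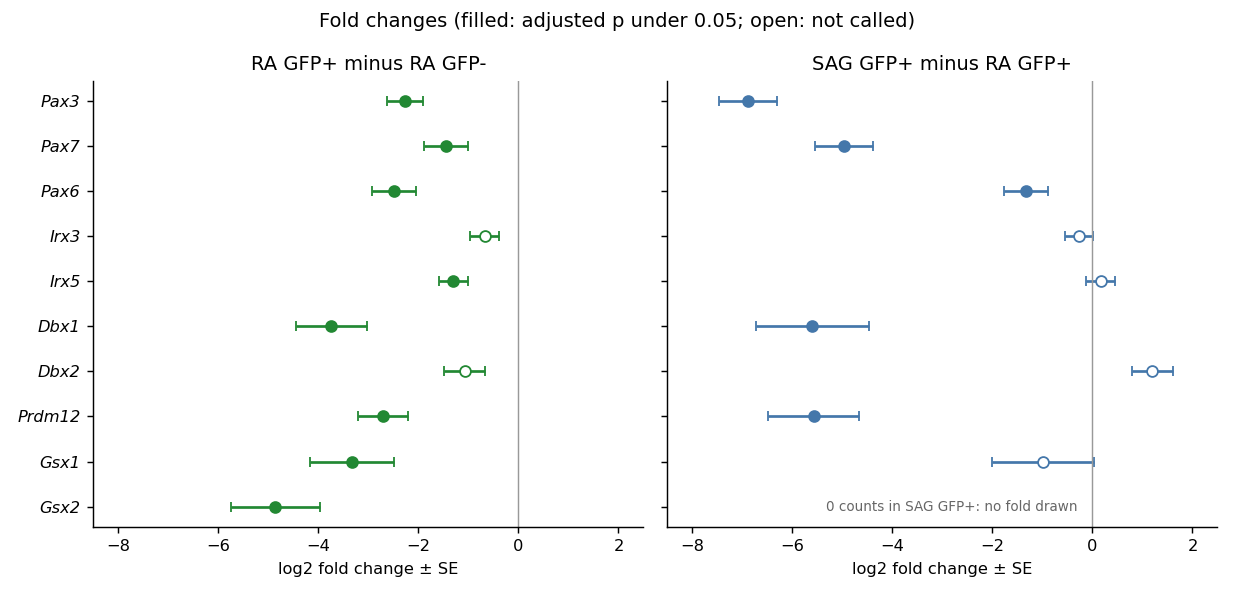
Log2 fold change ± SE of each factor for RA GFP+ minus RA GFP- cells (left) and SAG GFP+ minus RA GFP+ cells (right). Filled points have an adjusted p under 0.05, Prdm12 in the right panel rests on 1 SAG GFP+ count, and no fold is drawn for Gsx2, which had 0 SAG GFP+ counts. All 10 points on the left lie below 0, and on the right Irx5 and Dbx2 lie above 0 as open points.

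Prdm12, a zinc-finger factor of the domain that forms V1 interneurons and of developing pain-sensing neurons, was nearly absent from SAG GFP+ cells. Prdm12 (ENSMUSG00000079466, chromosome 2, 31640037 to 31655795, plus strand) stood at 0.0407, 0 and 0 CPM in SAG GFP+ libraries, at 0.392, 1.41 and 0.698 CPM in RA GFP+ libraries, and at 4.31, 7.77 and 4.42 CPM in RA GFP- libraries. The 3 groups did not overlap. Prdm12 was lower in RA GFP+ than in RA GFP- cells (log2 fold change -2.70, SE 0.50, adjusted p = 0.00355; -3.31 without RA GFP+ replicate 2). Against RA GFP+ cells it was lower in SAG GFP+ cells (adjusted p = 0.000997), where 1 count faced 72, a 66.0-fold ratio after scaling to library size, with a 95% counting interval of 11.5 to 2642. That 1 count lay in SAG GFP+ replicate 1. Without that library the SAG GFP+ group had 0 counts and the bound was at least 15.0-fold lower, and the ratio was 42.6 without RA GFP+ replicate 2, 43.1 without SAG GFP+ replicate 2 and 44.0 without SAG GFP+ replicate 3. The antisense gene Gm13425 shares 8.1% of the exon bases of Prdm12. It had 0, 11 and 154 counts in the SAG GFP+, RA GFP+ and RA GFP- groups, beside 1, 72 and 442 for Prdm12, and the strand setting of the counting is not given in the sources used here.

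Gsx1 and Gsx2 are homeodomain factors of dorsal progenitors that form dorsal interneurons, and both also act in the embryonic forebrain. By RPKM they and Dbx2 were the lowest 3 of the 10 in RA GFP- cells. Their promoter windows, drawn up as for the Dbx genes and with the same capitals, are shown because both members of the pair were lower in RA GFP+ than in RA GFP- cells.
Gsx1 promoter, chr5:147188446-147188745, plus strand: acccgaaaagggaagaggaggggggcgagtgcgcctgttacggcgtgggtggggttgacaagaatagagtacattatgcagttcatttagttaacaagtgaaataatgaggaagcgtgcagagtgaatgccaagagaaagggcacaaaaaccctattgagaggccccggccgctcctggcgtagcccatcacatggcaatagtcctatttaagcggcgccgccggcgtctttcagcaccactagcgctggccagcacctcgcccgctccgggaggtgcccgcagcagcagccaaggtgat
Gsx2 promoter, chr5:75075351-75075650, plus strand: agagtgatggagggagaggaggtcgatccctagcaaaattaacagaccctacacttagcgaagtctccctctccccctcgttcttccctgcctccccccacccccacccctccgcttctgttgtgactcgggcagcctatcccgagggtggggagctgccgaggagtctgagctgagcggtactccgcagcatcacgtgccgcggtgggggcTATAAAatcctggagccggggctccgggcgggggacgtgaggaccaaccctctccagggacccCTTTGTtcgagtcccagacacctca

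Gsx1 (ENSMUSG00000053129, chromosome 5, 147188696 to 147190947, plus strand) stood at 0.0407, 0 and 0.311 CPM in SAG GFP+ libraries, at 0.274, 0.403 and 0.0349 CPM in RA GFP+ libraries, and at 3.00, 3.01 and 1.26 CPM in RA GFP- libraries. All GFP+ libraries lay below the RA GFP- libraries, and the GFP+ groups overlapped. Gsx1 was lower in RA GFP+ than in RA GFP- cells (log2 fold change -3.32, SE 0.84, adjusted p = 0.0176; -3.96 without RA GFP+ replicate 2). Leaving out RA GFP+ replicate 1 (0.0567), or RA GFP- replicate 1 (0.0565) or 2 (0.0586), ended that call, and the range over 16 settings was 2.14e-05 to 0.0586. With 9 counts in the SAG GFP+ group and 20 in the RA GFP+ group, the difference between media was not detectable at this depth (-0.99, SE 1.02, adjusted p = 0.517). The value rests on single libraries. Without SAG GFP+ replicate 3, which held 8 of the 9 counts, the ratio was 12.2-fold lower in SAG GFP+ cells (95% counting interval 1.95 to 506), without RA GFP+ replicate 3 the log2 fold change was -1.51, and it was -0.35 without RA GFP+ replicate 2 and -0.38 without SAG GFP+ replicate 2. Its adjusted p was 0.119 to 0.880 over 14 settings.

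Gsx2 (ENSMUSG00000035946, chromosome 5, 75075601 to 75077893, plus strand) stood at 0, 0 and 0 CPM in SAG GFP+ libraries, at 0, 0.235 and 0 CPM in RA GFP+ libraries, and at 2.61, 2.48 and 2.44 CPM in RA GFP- libraries. Outside the RA GFP- group it was found only in RA GFP+ replicate 2, with 7 counts. The 0 of the SAG GFP+ group allows up to 0.0390 CPM, the level of 3 counts over the group. Gsx2 was lower in RA GFP+ than in RA GFP- cells (log2 fold change -4.86, SE 0.89, adjusted p = 0.00509), a call lost with DESeq2 (0.0583), with a range of 3.44e-08 to 0.0583 over 17 settings. Without RA GFP+ replicate 2 the RA GFP+ group had 0 counts and Gsx2 was at least 45.4-fold lower. Between media the bound was at least 2.14-fold lower in SAG GFP+ cells, which was not called (adjusted p = 0.148; 0.0456 with no filter, and up to 0.301 over 14 settings).

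Within the 4 pairs of related factors, the balance between the members was measured as the log2 ratio of their counts, each with 0.5 added. Dbx1 over Dbx2 averaged -6.14 ± 2.09 in SAG GFP+, 0.20 ± 2.35 in RA GFP+ and 3.11 ± 1.11 in RA GFP- cells (SD, n = 3 each). The SAG GFP+ libraries lay apart from both RA groups, and the RA groups overlapped. Pax3 over Pax7 averaged -3.09 ± 1.34 in SAG GFP+, -0.39 ± 0.48 in RA GFP+ and 0.43 ± 0.44 in RA GFP- cells, again with the SAG GFP+ libraries apart. Irx3 over Irx5 was the steadiest, at 1.75 ± 0.17 in SAG GFP+, 2.26 ± 0.16 in RA GFP+ and 1.61 ± 0.27 in RA GFP- cells, and there the RA GFP+ libraries lay above both other groups. Gsx1 over Gsx2 averaged 1.89 ± 2.06 in SAG GFP+, 2.08 ± 1.64 in RA GFP+ and -0.16 ± 0.68 in RA GFP- cells, on 0 counts of Gsx2 in the SAG GFP+ group and 7 in the RA GFP+ group. The added 0.5 weighs on ratios with few counts, since 2 SAG GFP+ libraries had 0 counts of Pax3. With 2 counts added instead, the SAG GFP+ means were -1.90 for Pax3 over Pax7, -5.10 for Dbx1 over Dbx2 and 0.97 for Gsx1 over Gsx2, and the RA GFP+ mean of Gsx1 over Gsx2 was 1.13. In 12 two-sided exact permutation tests, 7 comparisons had groups apart and gave p = 0.1, the smallest that 3 against 3 libraries allow, and the lowest adjusted value over the 12 was 0.171. These tests therefore could not pass the threshold.

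**Figure D3:**
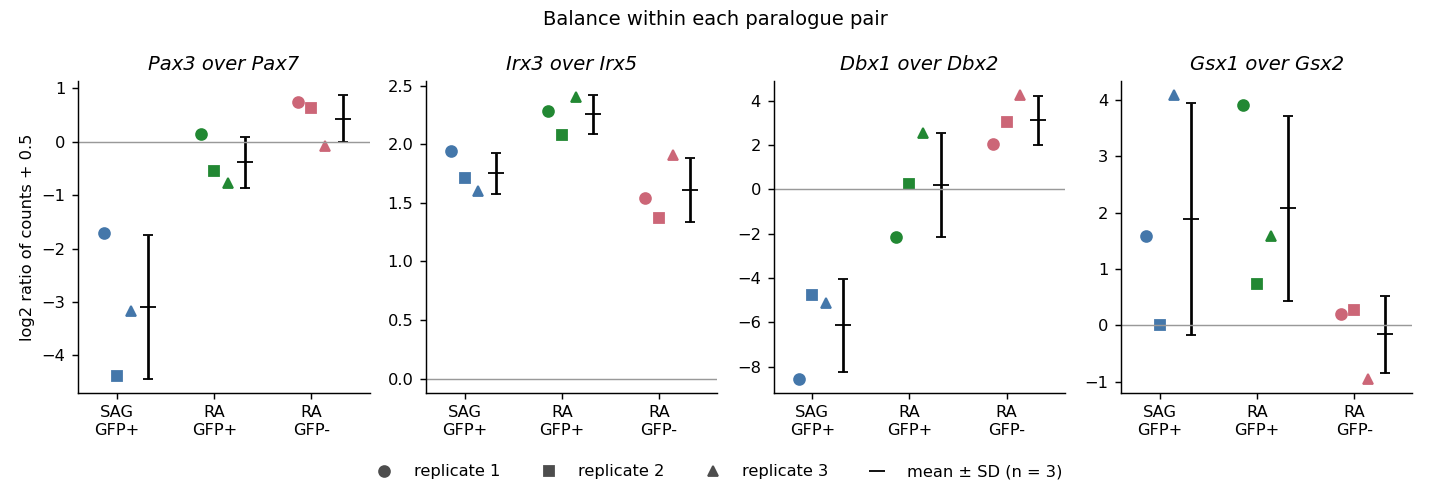
Log2 ratio of counts plus 0.5 within each pair of related factors (vertical axis, on its own range in each panel) in SAG GFP+, RA GFP+ and RA GFP- cells. Points are libraries and bars are the mean ± SD of 3. Dbx1 over Dbx2 lies near -6 in SAG GFP+ and near 3 in RA GFP- cells, while Irx3 over Irx5 stays between 1.37 and 2.40 in all 9 libraries.

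The RA GFP+ and RA GFP- libraries with the same number deviated together from their group means. For Pax7 and Dbx1, replicate 3 was the highest and replicate 1 the lowest in both RA groups. Pax6, Irx5, Prdm12 and Gsx1 also kept the same order of replicates across the gate, while Pax3, Irx3, Dbx2 and Gsx2 did not. Differences between replicates were thus shared across the gate for some of the 10. All 10 factors were called lower in RA GFP+ than in RA GFP- cells with the replicate number as a block in the 6 RA libraries, where 5240 genes in all were called in either direction. Without the block, 9 of the 10 factors and 3010 genes were called in the same 6 libraries, Dbx2 being the factor not called (adjusted p = 0.0728). In all 9 libraries 9 of the 10 factors and 3811 genes were called with the block, against 8 and 2838 without it. Calls over all genes thus rose with the block too, so the gain was not particular to the 10. These totals hold both directions, and the share called lower was worked out only for the reported fit.

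**Figure D4:**
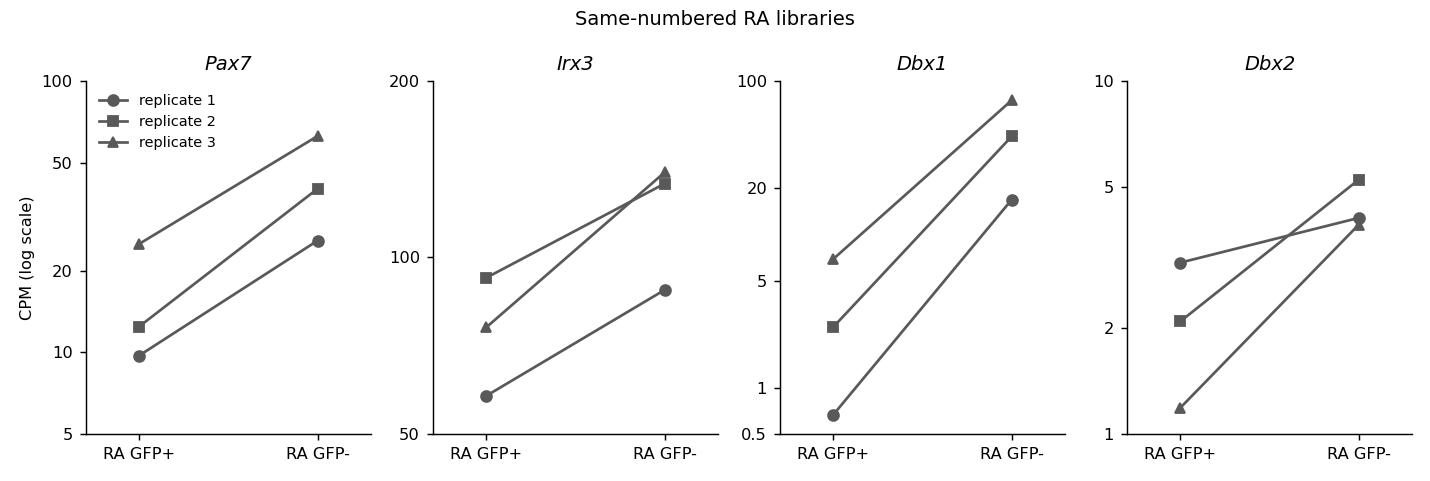
CPM (log axis, on its own range in each panel) of Pax7, Irx3, Dbx1 and Dbx2 in RA GFP+ and RA GFP- cells, with lines joining libraries of the same replicate number. All 12 lines run upward to RA GFP-, and for Dbx1 they run side by side although the libraries of a group differ widely, with RA GFP+ at 0.666 to 6.91 CPM and RA GFP- at 16.9 to 75.0 CPM.

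SAG GFP+ cells set against RA GFP- cells differ in both medium and gate. There 9 of the 10 factors were lower in SAG GFP+ cells and 0 higher, where 16.5% of tested genes were called lower and 12.0% higher, and Dbx2 was the exception. The libraries did not overlap for 8 of the 10, all lower in SAG GFP+ cells, as for 22.1% of tested genes. Pax3, Dbx1, Prdm12, Gsx1 and Gsx2 are in both counts and passed the filter through RA libraries alone. For them, and for Pax7, which reached the cutoff in 1 SAG GFP+ library, a higher call was hardly open. This comparison shares its SAG GFP+ and RA GFP- libraries with the other 2, so it is not a further line of evidence. The largest fitted log2 fold changes among factors with more than 3 SAG GFP+ counts were -9.34 for Dbx1 (SE 1.08, adjusted p = 8.61e-05) and -9.16 for Pax3 (SE 0.58, adjusted p = 1.34e-06). Without SAG GFP+ replicate 1 Pax3 was at least 952-fold lower, and without replicate 2 its log2 fold change was -8.55. Dbx1 then had 2 SAG GFP+ counts and was 1116-fold lower than in RA GFP- cells (95% counting interval 309 to 9222). Pax7 differed by -6.42 (-7.28 without SAG GFP+ replicate 1), Gsx1 by -4.32 and Pax6 by -3.81. The value for Gsx1 was -3.71 without SAG GFP+ replicate 2, and without replicate 3 the ratio was 125 (95% counting interval 22.2 to 4957). Prdm12 was 421-fold lower by counts (95% counting interval 75.1 to 16651; at least 95.5-fold without SAG GFP+ replicate 1, 275-fold without replicate 2 and 280.2-fold without replicate 3). Gsx2, at 0 counts in SAG GFP+ cells, was at least 64.4-fold lower (42.0 to 43.8 when any SAG GFP+ library was left out). At the other end Irx5 differed by -1.14 (adjusted p = 0.0120) and Irx3 by -0.94 (adjusted p = 0.0306). Both calls were lost without some libraries, Irx5 without RA GFP- replicate 2 (0.0547) or SAG GFP+ replicate 3 (0.0503), and Irx3 without RA GFP- replicate 2 (0.0875) or 3 (0.0803) or SAG GFP+ replicate 2 (0.102) or 3 (0.101). Over 17 settings the range was 1.44e-05 to 0.0547 for Irx5 and 1.22e-05 to 0.102 for Irx3. Dbx2 averaged 4.83 ± 2.38 CPM in SAG GFP+ and 4.42 ± 0.727 CPM in RA GFP- cells (log2 fold change 0.12, SE 0.40, adjusted p = 0.847).

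Ventral progenitor factors, among them the cross-repression partners named above, moved the other way across the gate, though not all were called. Foxa2 and Nkx2-9 are in the list but are not among those partners. Of Foxa2, Nkx2-2, Nkx2-9, Nkx6-1, Nkx6-2 and Olig2, 5 were higher and 0 lower in RA GFP+ than in RA GFP- cells (median log2 fold change 3.95). In SAG GFP+ against RA GFP+ cells 4 were higher and 0 lower (median 2.05). Over all tested genes, 8.49% were called higher and 8.43% lower across the gate, and 9.78% higher and 14.8% lower between media. Nkx2-2 passed the filter through GFP+ libraries alone, so a lower call across the gate was hardly open to it. Foxa2, whose reporter set the gate, is among the listed factors, so its difference across the gate follows from the sort. Nkx6-2, the partner of Dbx1, averaged 181 ± 24.7 CPM in SAG GFP+, 5.41 ± 1.90 CPM in RA GFP+ and 1.78 ± 0.867 CPM in RA GFP- cells. Nkx6-1, the partner of Dbx2, averaged 385.6 ± 70.5 CPM in SAG GFP+, 62.0 ± 3.24 CPM in RA GFP+ and 4.24 ± 0.436 CPM in RA GFP- cells. Nkx2-2, the partner of Pax6, averaged 42.2 ± 8.34 CPM in SAG GFP+, 2.44 ± 0.806 CPM in RA GFP+ and 0.0861 ± 0.0418 CPM in RA GFP- cells. Each of these 3 was called higher in both comparisons. Olig2, the partner of Irx3, averaged 13.2 ± 7.52 CPM in SAG GFP+, 4.79 ± 4.44 CPM in RA GFP+ and 1.14 ± 0.557 CPM in RA GFP- cells. It was called neither between media (adjusted p = 0.123) nor across the gate (0.0645). Between media the log2 fold changes were -5.60 for Dbx1 and 5.06 for Nkx6-2, and -1.33 for Pax6 and 4.12 for Nkx2-2. Dbx2 (1.20, not called) and Nkx6-1 (2.64) had the same sign. Irx3 (-0.27) and Olig2 (1.46) had opposite signs, with neither called.

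Of 10 other alar progenitor factors, 9 were tested. In RA GFP+ against RA GFP- cells 6 were lower and 1 was higher (median log2 fold change -2.51). Over all tested genes these shares were 8.43% and 8.49%. The lower ones included Prdm13 (log2 fold change -4.30, SE 0.57, adjusted p = 0.000456), which acts in dorsal progenitors that form interneurons, and the higher one was Msx1, a factor of the dorsal midline (1.96, SE 0.51, adjusted p = 0.0198). In SAG GFP+ against RA GFP+ cells 5 were lower and 2 higher (median -2.42, or -1.56 with Ptf1a, at 0 SAG GFP+ counts, held at its bound). Over all tested genes the shares were 14.8% lower and 9.78% higher. Of the 5, Ptf1a passed the filter through RA GFP- libraries alone and Prdm13 through RA libraries alone. A higher call was hardly open to either in SAG GFP+ cells, or to Ptf1a in RA GFP+ cells. Msx1 was among the lower ones, at 1.35 ± 1.45 CPM in SAG GFP+ and 57.7 ± 19.9 CPM in RA GFP+ cells (-5.43, SE 0.62, adjusted p = 9.50e-05). Olig3 was among the higher ones, at 32.8 ± 6.33 CPM in SAG GFP+ and 10.1 ± 6.08 CPM in RA GFP+ cells (1.70, SE 0.44, adjusted p = 0.0148). Olig3 is also used in some ventral progenitors.

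Of 18 transcription factors of interneurons born from these domains, 13 were tested. In RA GFP+ against RA GFP- cells 4 were lower and 2 higher (median log2 fold change -1.45), beside 8.43% and 8.49% of tested genes. In SAG GFP+ against RA GFP+ cells 6 were lower and 2 higher (median -1.46, also with genes at 0 held at their bounds). Over all tested genes these shares were 14.8% and 9.78%. Of the 6, Lbx1, Tlx3 and Barhl2 passed the filter through RA libraries alone, so a higher call in SAG GFP+ cells was hardly open to them. Lbx1, which specifies dorsal interneurons, had 0 counts in SAG GFP+ cells, and averaged 0.915 ± 0.736 CPM in RA GFP+ and 9.13 ± 2.07 CPM in RA GFP- cells. It was called lower in SAG GFP+ than in RA GFP+ cells (adjusted p = 0.00177) and lower in RA GFP+ than in RA GFP- cells (log2 fold change -3.31, SE 0.54, adjusted p = 0.00286). En1, the marker of V1 interneurons, averaged 7.95 ± 2.62 CPM in SAG GFP+ and 0.816 ± 0.118 CPM in RA GFP+ cells (3.27, SE 0.44, adjusted p = 0.000296). En1 was higher in the group where Prdm12 had 1 count, and it is also expressed outside these interneurons. Evx1, a marker of V0 interneurons, did not pass the filter. It stood at 5.82, 0 and 0 CPM in SAG GFP+ libraries, at 0.784, 0 and 0.174 CPM in RA GFP+ libraries, and at 0, 0.191 and 0.266 CPM in RA GFP- libraries.

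Within the wider families, Pax2, Pax5, Pax8 and Pax9 were the other Pax genes tested. Pax5, a factor of the midbrain-hindbrain border, averaged 16.6 ± 4.29 CPM in SAG GFP+, 0.375 ± 0.122 CPM in RA GFP+ and 3.07 ± 2.90 CPM in RA GFP- cells. It was higher in SAG GFP+ than in RA GFP+ cells (log2 fold change 5.44, SE 0.65, adjusted p = 0.00014), against the direction of Pax3, Pax7 and Pax6. Pax2 was lower in RA GFP+ than in RA GFP- cells (-1.45, SE 0.32, adjusted p = 0.00962) and in SAG GFP+ than in RA GFP+ cells (-2.14, SE 0.36, adjusted p = 0.00117). Of the other 4 Irx genes, Irx2 was lower in RA GFP+ than in RA GFP- cells (-0.86, SE 0.25, adjusted p = 0.0366), and Irx4 was lower in SAG GFP+ than in RA GFP+ cells (-2.96, SE 0.55, adjusted p = 0.00229). The remaining calls between these groups were that Pax9 was higher and Pax5 lower in RA GFP+ than in RA GFP- cells. Among the 6 Groucho/TLE corepressors, through which many homeodomain factors repress their targets, Tle2 and Tle3 were higher and Tle6 lower in RA GFP+ than in RA GFP- cells. Only Tle6 was called between SAG GFP+ and RA GFP+ cells, again lower (-1.81, SE 0.25, adjusted p = 0.000341).

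The cell mixtures of the groups also differed in markers. The summed level of 7 neural progenitor markers was 1301 to 1429 CPM in SAG GFP+ libraries, 493 to 737 CPM in RA GFP+ libraries and 1203 to 1327 CPM in RA GFP- libraries. Of the 7, 6 were lower in RA GFP+ than in RA GFP- cells, and all 7 were higher in SAG GFP+ than in RA GFP+ cells. Over all tested genes, 8.43% were called lower in the first comparison and 9.78% higher in the second. The 6 pluripotent cell markers summed to 225, 60.5 and 71.2 CPM in SAG GFP+ replicates 1 to 3, to 35.1 to 47.4 CPM in RA GFP+ libraries and to 588 to 960 CPM in RA GFP- libraries. The 6 neuronal markers summed to 346 to 566 CPM in SAG GFP+, 75.7 to 86.6 CPM in RA GFP+ and 285 to 408 CPM in RA GFP- libraries. Their part in the results was not tested.

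Markers of other tissues, some of which use Pax3, Pax7, Pax6 or Gsx factors, were also summed. The 10 factors themselves summed to 63.1 to 140.5 CPM in SAG GFP+, 103 to 172 CPM in RA GFP+ and 318 to 512 CPM in RA GFP- libraries. The 7 neural crest markers summed to 44.2 to 93.0 CPM in SAG GFP+, 76.5 to 89.1 CPM in RA GFP+ and 49.2 to 51.2 CPM in RA GFP- libraries. Of these, Sox10 and Ets1 were higher and Foxd3, Tfap2a and Tfap2b lower in RA GFP+ than in RA GFP- cells. Sox10 averaged 0.193 ± 0.0700 CPM in SAG GFP+, 2.80 ± 0.898 CPM in RA GFP+ and 0.683 ± 0.376 CPM in RA GFP- cells, Ets1 30.1 ± 9.13, 37.9 ± 6.41 and 10.1 ± 2.24 CPM in the same order, and Foxd3 was under 1 CPM in every GFP+ library. The 7 paraxial mesoderm and dermomyotome markers summed to 11.8 to 15.7 CPM in SAG GFP+, 22.5 to 48.5 CPM in RA GFP+ and 18.6 to 22.4 CPM in RA GFP- libraries, with Meox2 and Myf5 under 1 CPM in all 9. The 8 forebrain and eye field markers summed to 17.4 to 26.1 CPM in SAG GFP+, 31.2 to 61.0 CPM in RA GFP+ and 8.41 to 19.0 CPM in RA GFP- libraries. The 7 endoderm and pancreas markers summed to 36.9 to 79.2 CPM in SAG GFP+, 63.8 to 112.9 CPM in RA GFP+ and 37.1 to 43.1 CPM in RA GFP- libraries. Within that list Sox17, an endoderm factor, averaged 0.424 ± 0.435 CPM in SAG GFP+, 46.3 ± 10.6 CPM in RA GFP+ and 1.33 ± 0.353 CPM in RA GFP- cells. The 6 surface ectoderm and placode markers summed to 25.6 to 46.9 CPM in SAG GFP+, 72.6 to 109.8 CPM in RA GFP+ and 60.6 to 87.7 CPM in RA GFP- libraries, with Krt5 and Krt14 under 1 CPM in all 9. The part of these cells in the levels of the 10 factors was not tested.

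Scaled to 1000 CPM of the 7 neural progenitor markers, a measure added after the data were seen, the RA GFP+ and RA GFP- groups drew closer. The marker sum was 493 to 737 CPM in RA GFP+ libraries, below the 1203 to 1327 CPM of RA GFP- and 1301 to 1429 CPM of SAG GFP+ libraries. Dividing by it raises every gene in RA GFP+ cells relative to the other groups, so the narrowing follows from the scaling itself. On this scale Dbx2 averaged 3.56 ± 1.96 in SAG GFP+, 3.66 ± 2.33 in RA GFP+ and 3.51 ± 0.415 in RA GFP- cells. Whether the share of neural progenitors accounts for its lower CPM in RA GFP+ cells was not tested. The log2 difference of the scaled means between RA GFP+ and RA GFP- cells was 0.06 for Dbx2 and 0.34 for Irx3, both with the opposite sign to the CPM. Irx3 averaged 46.1 ± 22.6 in SAG GFP+, 120.6 ± 19.0 in RA GFP+ and 95.4 ± 20.1 in RA GFP- cells, and every SAG GFP+ library lay below all RA libraries. Irx5 averaged 13.2 ± 4.85 in SAG GFP+, 25.6 ± 7.04 in RA GFP+ and 31.3 ± 6.96 in RA GFP- cells, and its RA groups overlapped. Pax6 averaged 6.61 ± 3.95 in SAG GFP+, 33.9 ± 15.2 in RA GFP+ and 99.3 ± 15.0 in RA GFP- cells, without overlap between the 3 groups. Pax3, Dbx1, Prdm12, Gsx1 and Gsx2 also stayed lower in every RA GFP+ library than in every RA GFP- library on this scale, while Pax7 overlapped.

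**Figure D5:**
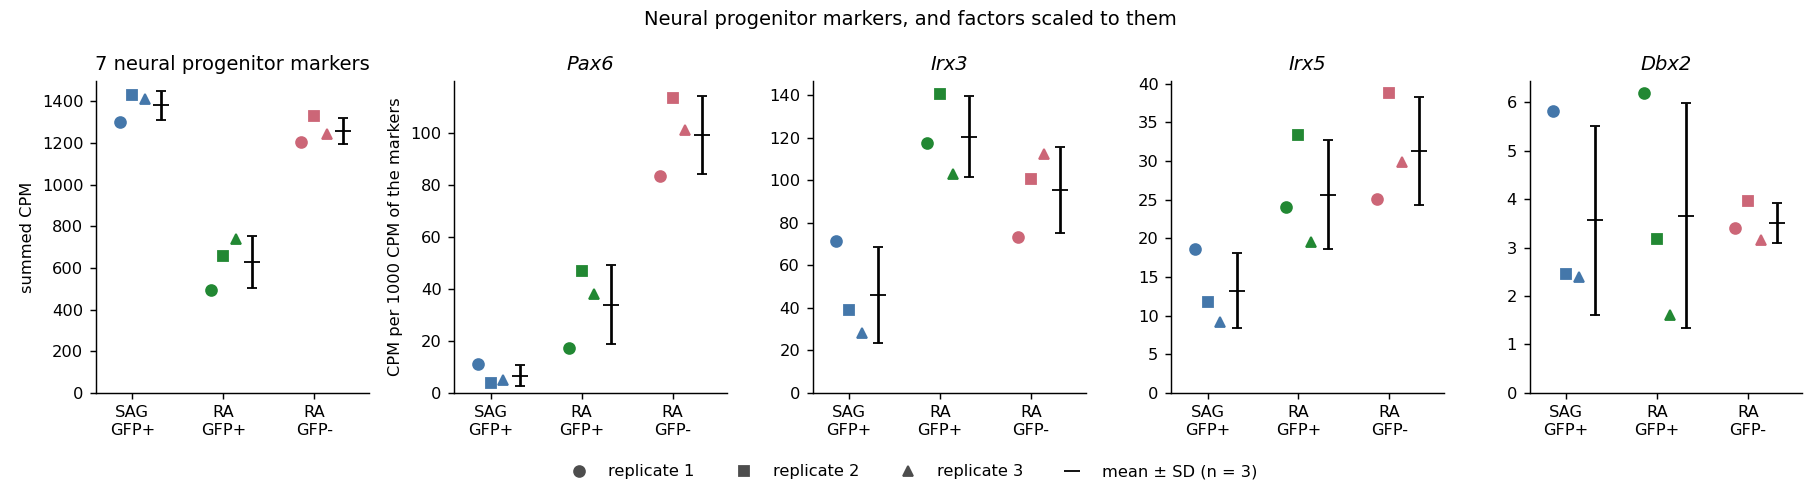
Summed CPM of the 7 neural progenitor markers (first panel) and the levels of Pax6, Irx3, Irx5 and Dbx2 per 1000 CPM of those markers (other panels), in SAG GFP+, RA GFP+ and RA GFP- cells. Points are libraries and bars are the mean ± SD of 3. The RA GFP+ libraries have the lowest marker sums, at 493 to 737 CPM, and the 3 group means of Dbx2 lie between 3.51 and 3.66.

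Promoter windows were found in the RefSeq table for 8 of the 10 factors, as 9 windows of 300 bases, of which Pax6 had 2. A set of 6 short motifs was searched on both strands. The GLI site GACCACCCA of the hedgehog effectors was in 0 of the 9 windows and in 0.253% of all 32851 windows of the table. The homeodomain core TAATTA and the nuclear receptor half-site AGGTCA were also in 0 of the 9, against 5.29% and 16.3% of all windows. TATAAA was in the windows of Gsx2, 38 bases before the start, and Dbx1, 45 bases before it, and in 13.6% of all windows. CCAAT was in 1 Pax6 window and in that of Dbx1, which held it at 177 and at 153 bases before the start, and in 37.4% of all windows. The SOX motif ACAAAG was in 4 of the 9, those of Dbx1, Dbx2 and Gsx2 and 1 of Pax6, and in 18.7% of all windows. A match is only a match of letters, and a window without one says nothing of the rest of the locus.

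Over the 9 libraries, the pairwise Pearson r of log2 CPM among the 10 factors lay between -0.22 and 0.99 over 45 pairs, with a median of 0.76. The libraries form 3 groups, so these values mostly reflect group means. The closest pair was Pax3 and Pax7 (r = 0.989), and Dbx2 had r between -0.22 and 0.51 with the others. By the same measure over all tested genes, the nearest in pattern to Pax3 was Traf1 (r = 0.995), to Pax6 the alar factor Prdm13 (0.985), and to Dbx1 Itgb3 (0.993), followed by Wnt7b (0.989) and Boc (0.988). The nearest to Irx3 was Ryr2 (0.969), to Irx5 Tnfrsf8 (0.978), to Dbx2 Ercc8 (0.955), to Prdm12 Gm12794 (0.993), to Gsx1 Zfp989 (0.982) and to Gsx2 Cbr2 (0.992). Pax7 had Pax3 as its nearest gene, followed by Traf1 (0.988).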

How the data were processed

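Poly(A) RNA was sequenced from 9 libraries with a directional kit, per the labels' protocols. The authors deposited raw read counts per Ensembl gene, 1 column per library, made per the submitters' processing notes with featureCounts (Subread 1.6.2) after Bowtie2 2.3.4.1 and Trim Galore 0.5.0, on GRCm38. Neither strand setting nor annotation release is given in the sources used here. Symbols, positions and exon lengths came from GENCODE M21, promoter windows from RefSeq (GRCm38.p6), and Tle5 was found under its older symbol Aes.

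Counts were tested in R 4.3.3 with edgeR 4.0.16: TMM scaling, filterByExpr with a minimum count of 10 (16772 genes), a quasi-likelihood fit of 3 group means in all 9 libraries, and Benjamini-Hochberg adjustment over all tested genes. The biological coefficient of variation was 0.226. The procedure was also run on simulated data with the same spread for every gene and no pairing of libraries, which is simpler than these data. Alternatives were DESeq2 1.42.0, its size factors, other filters, the 6 libraries compared, a replicate block, and leaving out each library. Bounds use 3 counts over a group, and with 1 to 3 counts a ratio with an exact 95% interval is given. Both cover counting error only. Log2 CPM for correlations used a prior count of 2.

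Deviations from the group means correlated across genes between same-numbered RA GFP+ and RA GFP- libraries (r = 0.273, 0.307 and 0.347), so the numbers pair the RA libraries. The labels do not say what a number shares.

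The 10 factors and the gene and marker lists were chosen with earlier results of these data known. By rule, all 10 were named, with the nearest genes by Pearson r and, from each list, called genes or those with the smallest p. Scaling to neural progenitor markers was added after the data were seen. Olig2 and Evx1 were also named for their known roles, and Sox17 after its values were seen. Another alar progenitor factor is counted in its list but not reported here. Pax3 and Irx5 promoters were not used here.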

Additional observations from a re-analysis of the deposited data

How the results depend on the processing

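Over the alternatives, the number of the 10 factors called lower was 6 to 10 for RA GFP+ against RA GFP- cells (8 reported), 4 to 6 for SAG GFP+ against RA GFP+ cells (5 reported) and 7 to 9 for SAG GFP+ against RA GFP- cells (9 reported). The number called higher was 0 throughout, except in SAG GFP+ against RA GFP+ cells, where Dbx2 made it 1 with no filter, with DESeq2 and in both fits with the replicate block, and where it was 0 to 1 when single libraries were left out. A pairing of SAG and RA libraries by number was not clear (r = 0.111, -0.0816 and 0.182 for SAG GFP+ with RA GFP+). For SAG GFP+ with RA GFP- libraries r was 0.175, -0.0218 and 0.242. Such values neither show nor exclude a pairing, so neither fit is preferred between media on the ground of the block. With the block Dbx2 had an adjusted p of 0.0278 in 6 and 0.0206 in 9 libraries, and Pax6 was not called (0.142 and 0.0733). In the RA comparison the block changed the call of Dbx2 in both sets of libraries and no other call among the 10. Irx3 was called in the 6 RA libraries with and without the block, and in the 9 libraries in neither case. All genes called were 1783 to 5240 of the tested genes for RA GFP+ against RA GFP- cells, 2747 to 5368 for SAG GFP+ against RA GFP+ cells and 3365 to 6178 for SAG GFP+ against RA GFP- cells. The lowest of the first range was without RA GFP+ replicate 2 and the highest with the block in the 6 RA libraries.

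Of single log2 fold changes, 140 of 159 alternatives kept direction and call for RA GFP+ against RA GFP- cells, 133 of 154 for SAG GFP+ against RA GFP+ cells and 152 of 159 for SAG GFP+ against RA GFP- cells. The sign changed, without a call, for Irx5 in SAG GFP+ against RA GFP+ cells (-0.0091 without RA GFP+ replicate 1, -0.082 without SAG GFP+ replicate 1, 0.46 at most) and for Dbx2 in SAG GFP+ against RA GFP- cells (-0.33 without SAG GFP+ replicate 1, 0.34 at most). The cause was not tested. Fits that left Gsx1 or Gsx2 under the filter gave no value. The edgeR fit with no filter gave far lower adjusted p at nearly the same log2 fold changes. Pax6 in SAG GFP+ against RA GFP+ cells was at -1.33 in both fits, with adjusted p of 0.0481 reported and 7.85e-07 with no filter. Low ends of ranges and calls that come from that fit are therefore not stronger evidence. The reason for the drop was not tested. Levels under about 0.0390 CPM in a group cannot be told from 0 at this depth.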
